A study of Mus musculus with 12 samples.

Results

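The CC chemokines described here are the 10 genes Ccl2, Ccl3, Ccl4, Ccl5, Ccl6, Ccl7, Ccl8, Ccl9, Ccl11 and Ccl12, taken by symbol from a table of 32544 genes in which all 10 had a row. Their estimated counts were followed through 12 RNA-seq libraries of mouse cells, 3 in each of 4 groups. Bone marrow-derived macrophages (BMDMs), which are macrophages grown from marrow with L929-conditioned medium, came from mice labelled WT, which carried LysMCre, a Cre driven by the lysozyme 2 gene of myeloid cells, and from mice labelled PHD2cko, in which LysMCre was to delete the oxygen sensor PHD2 on the same background. RNA was taken 24 h after seeding. NIH/3T3 cells, an established line of mouse embryonic fibroblasts, were starved of serum and then kept for 72 h in medium that WT or PHD2cko BMDMs had conditioned for 24 h, and they carried neither LysMCre nor a deletion themselves. Both media also held L929-conditioned medium, itself made by a line of mouse fibroblasts. The age of the mice, the number of mice behind the 3 replicates and the oxygen condition of the sequenced cultures are not given in the sources used here, so the p-values measure the spread between these libraries, which may be technical.

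Chemokines are small secreted proteins that draw leukocytes along a gradient, and the CC family, named for a pair of neighbouring cysteines, is the main attractant of monocytes, macrophages, eosinophils and T cells. Each acts through heptahelical receptors with overlapping preference. Ccl2, Ccl7 and Ccl12 are ligands of Ccr2, the receptor by which monocytes leave the marrow and enter inflamed tissue such as an atherosclerotic plaque. Ccl11 (eotaxin) acts on the eosinophil receptor Ccr3, mouse Ccl8 on Ccr8, and Ccl3, Ccl5 (RANTES), Ccl6 and Ccl9 on Ccr1. Ccl4 is a close relative of Ccl3 and, like it, an attractant of macrophages and T cells. Macrophages and stromal fibroblasts both make CC chemokines, and NF-kB, AP-1 and interferon-regulated factors are well-known inducers of these genes.

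The comparison of WT with PHD2cko asked whether loss of PHD2 altered chemokine RNA in the macrophages themselves, and the comparison of the media asked whether fibroblasts answered to what the macrophages had released. Library totals ran from 15516465 to 25199770 counts. Egln1, which encodes PHD2, had counts of 860, 904 and 913 in WT BMDMs and 1134, 1000 and 1364 in the BMDMs labelled PHD2cko. The 3 PHD2cko libraries had more Egln1 RNA than those of WT (log2 fold change 0.33, standard error 0.0527, adjusted p = 0.00203), and directions below refer to the label. A count over the whole gene does not show whether an exon was deleted, so this value tests neither the deletion nor the protein. The fibroblast markers, 10 genes such as Col1a2, summed to between 19729 and 26847 CPM (counts scaled to a library total of 1000000) in 3T3 and to at most 5.64 CPM in BMDMs. In the opposite direction, 23 macrophage markers such as Lyz2 and Csf1r summed to between 36518 and 41895 CPM in BMDMs. These markers were at 21.7 to 23.4 CPM in 3T3 in WT medium, where at most 2 of them were at 0 in a library, and at 877, 193 and 790 CPM in replicates 1, 2 and 3 in PHD2cko medium, so a macrophage signal was present in the fibroblast libraries and moved with the medium. Replicates of 3T3 in WT medium were uneven, since the chi-square statistic between replicate 1 and either of the others was 24.8 and 26.9 times its degrees of freedom, and 2.35 times between replicates 2 and 3.

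All 10 genes lay on chromosome 11 of GRCm38, in a pair of clusters with 5 members each and 1409 kb between them. The first cluster, on the forward strand, held Ccl2 (82035571 to 82037453), Ccl7 (82045712 to 82047525), Ccl11 (82057823 to 82062955), Ccl12 (82101845 to 82103400) and Ccl8 (82115185 to 82116799). The second held Ccl5 (83525778 to 83530518), Ccl9 (83572919 to 83578636), Ccl6 (83587882 to 83593087) and Ccl3 (83647844 to 83649355) on the reverse strand and Ccl4 (83662584 to 83664683) on the forward strand. All 10 are annotated as protein-coding. No run of 31 transcript bases was shared between members, so reads could not be split among them at that length. Ccl9 shared 3.98% of its 31-base words with other genes, Ccl6 1.02%, and the other 8 members at most 0.539%. Ccl2 overlaps Gm17268 and Ccl6 overlaps E230016K23Rik, both on the opposite strand, and whether reads were counted by strand is not given in the sources used here. Gm17268 was listed at 0 in every library.

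Promoter windows, from 250 bases before to 50 after the annotated start, were held by RefSeq (GRCm38.p6) for 5 members, Ccl3, Ccl6, Ccl8, Ccl9 and Ccl12. Shown are 4 of them, since Ccl9 was the most abundant member in macrophages, Ccl3 and Ccl12 had at most 1 count in fibroblasts in WT medium and were called higher in PHD2cko medium, and Ccl8, the neighbour of Ccl12, did not pass the test there. Capitals mark matches, on either strand, to TATAAA, to the AP-1 motif TGANTCA or to the NF-kB consensus.
Ccl9 (chr11:83578587-83578886, reverse strand): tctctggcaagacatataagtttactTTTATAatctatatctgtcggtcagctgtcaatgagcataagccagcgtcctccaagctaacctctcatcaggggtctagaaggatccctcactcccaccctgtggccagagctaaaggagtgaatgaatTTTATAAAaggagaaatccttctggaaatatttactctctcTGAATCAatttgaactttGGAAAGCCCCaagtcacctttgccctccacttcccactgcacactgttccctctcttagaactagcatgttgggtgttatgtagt
Ccl3 (chr11:83649329-83649628, reverse strand): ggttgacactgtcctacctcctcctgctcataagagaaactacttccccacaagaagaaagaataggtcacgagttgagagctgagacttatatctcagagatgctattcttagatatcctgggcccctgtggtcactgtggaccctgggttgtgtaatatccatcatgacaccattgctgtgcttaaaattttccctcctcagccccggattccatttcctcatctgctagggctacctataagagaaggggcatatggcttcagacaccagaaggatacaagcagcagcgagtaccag
Ccl12 (chr11:82101595-82101894, forward strand): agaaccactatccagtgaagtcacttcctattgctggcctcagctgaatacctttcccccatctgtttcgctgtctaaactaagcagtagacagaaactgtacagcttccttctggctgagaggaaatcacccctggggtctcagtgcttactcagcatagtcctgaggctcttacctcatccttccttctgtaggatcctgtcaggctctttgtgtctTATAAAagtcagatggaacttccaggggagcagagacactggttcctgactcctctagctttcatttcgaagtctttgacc
Ccl8 (chr11:82114935-82115234, forward strand): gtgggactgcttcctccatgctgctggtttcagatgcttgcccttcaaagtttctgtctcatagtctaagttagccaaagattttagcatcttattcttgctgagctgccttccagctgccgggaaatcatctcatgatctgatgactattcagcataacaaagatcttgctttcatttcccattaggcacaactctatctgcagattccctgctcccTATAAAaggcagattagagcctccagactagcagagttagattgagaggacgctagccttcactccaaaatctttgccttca

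The neighbours Ccl12 and Ccl8 both held TATAAA close to the usual place of a TATA box, at -31 to -26 and at -32 to -27 from the start. Ccl9 held TATAAA on the forward strand at -92 to -87 and on the reverse strand at -224 to -219 and at -94 to -89, the last overlapping the forward match. It also held TGANTCA at -53 to -47 and the NF-kB consensus at -35 to -26 on the reverse strand. Among 32851 promoters of the same length, TATAAA was found in 13.6%, TGANTCA in 7.81% and the NF-kB consensus in 4.51%. Ccl3 and Ccl6 held none of these letters. An interferon-response element motif (3.44% of promoters) and the hypoxia-response cores ACGTG (19.6%) and GCGTG (32.4%) were in none of the 5 windows, which says only that those letters are not there.

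Macrophages expressed the second cluster. Ccl9 led in WT BMDMs with 13528, 13904 and 13778 counts, or 769 ± 16.0 CPM (SD, n = 3). Ccl6, like Ccl9 a Ccr1 ligand of rodents, had 2521, 2570 and 2523 counts. Ccl3 followed with 645, 739 and 733 counts, Ccl4 with 248, 256 and 266, and Ccl5 with 71, 80 and 53. Members of the first cluster were scarce in the same libraries. Ccl2 had 16, 16 and 18 counts, Ccl12 8, 12 and 8, Ccl8 6, 5 and 5, and Ccl7 1, 1 and 0. Ccl11 was at 0 in all 6 BMDM libraries, and 3 counts, the floor used for folds, would correspond to at most 0.188 CPM. Per kb of exon, the order of levels in WT BMDMs was Ccl9 (253 ± 5.26 CPM per kb), Ccl6 (79.2 ± 2.31), Ccl3 (51.5 ± 2.17), Ccl4 (21.8 ± 0.456) and Ccl5 (3.97 ± 0.820), with no overlap of libraries between neighbours. Further down, Ccl12 overlapped Ccl2, and Ccl7 overlapped Ccl11. Ccl9 made up 61.4% of the summed level per kb of the 10 members in WT BMDMs and 58.1% in those labelled PHD2cko.

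In 3T3 fibroblasts the first cluster took that place. In WT medium Ccl7 had 583, 571 and 439 counts (26.6 ± 4.80 CPM), Ccl2 192, 157 and 116 (7.81 ± 2.36 CPM), and Ccl8 48, 36 and 25 (1.83 ± 0.692 CPM). Ccl11 had 12, 14 and 11 counts. Ccl12, although it lies between Ccl11 and Ccl8, was at 0 in all 3 libraries. The second cluster was near absent, with 13, 42 and 23 counts of Ccl9, 10, 12 and 7 of Ccl5, 1, 9 and 0 of Ccl6, 0, 1 and 0 of Ccl3 and none of Ccl4. Per kb of exon, Ccl7 (33.3 ± 5.99 CPM per kb) exceeded Ccl2 (6.87 ± 2.08) and Ccl2 exceeded Ccl8 (3.59 ± 1.35) without overlap, whereas Ccl11, Ccl5 and Ccl9 overlapped their neighbours in the order. Ccl7 made up 73.5% of the summed level per kb.

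**Figure D1:**
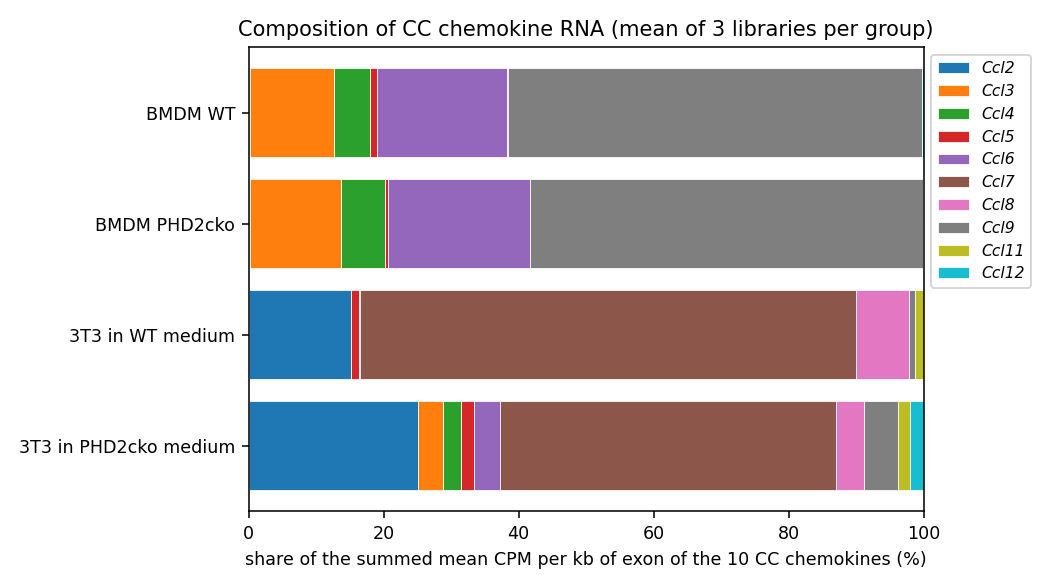
Stacked bars give, for each of the 4 groups, the share (%) of each member in the summed mean CPM per kb of exon of the 10 CC chemokines. Ccl9 fills 61.4 and 58.1% of the bars of BMDMs labelled WT and PHD2cko, and Ccl7 73.5 and 49.8% of those of 3T3 in WT and PHD2cko medium.

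Tested directly, WT BMDMs differed from 3T3 in WT medium in all 10 members, 6 higher and 4 lower, where 85.3% of all genes tested passed the same threshold (40.4% higher and 44.9% lower). Against that background the count of calls is not a result about the family. The 5 members of the second cluster and Ccl12 were higher in BMDMs. Ccl9 was 623-fold and Ccl5 8.01-fold higher, and Ccl3 was at least 259-fold and Ccl4 at least 94.4-fold higher, computed at a floor of 3 counts per library because 3T3 in WT medium had at most 1 count. Ccl2 was 8.38-fold, Ccl8 6.13-fold and Ccl7 at least 159-fold higher in the fibroblasts. Scaling by total count in place of TMM shifted this comparison by -0.27 on the log2 scale for the median gene.

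Between the BMDMs, no member passed an adjusted p under 0.05, against 6.73% of all genes. Ccl5 came closest, with 47, 33 and 47 counts in BMDMs labelled PHD2cko, all below the 71, 80 and 53 of WT (log2 fold change -0.74, standard error 0.257, adjusted p = 0.122), and it was the only member with an unadjusted p under 0.05. Scaled by TMM, the libraries of the groups did not overlap in 8 of 10 members, against 31.9% of all genes, and over the total count Ccl9 overlapped as well. Among the scarcer of these, PHD2cko was lower, 1.66-fold for Ccl5, 1.40-fold for Ccl2, 1.84-fold for Ccl12 and at least 1.81-fold for Ccl8. The abundant members differed less. Ccl3 was at 44.3 ± 1.39 CPM in PHD2cko and 39.4 ± 1.66 CPM in WT, Ccl4 at 18.0 ± 0.934 and 14.4 ± 0.301 CPM, and Ccl6 at 160.0 ± 3.13 and 142 ± 4.14 CPM. Ccl9 was at 753 ± 11.5 and 769 ± 16.0 CPM. Fitted on the 6 BMDM libraries alone, 4 members passed, Ccl3 (0.15, adjusted p = 0.0303), Ccl4 (0.32, adjusted p = 0.00370) and Ccl6 (0.16, adjusted p = 0.00269) higher and Ccl5 (-0.74, adjusted p = 0.0135) lower, in a fit that called 20.6% of all genes. The count of calls thus depended on which libraries entered the fit. Over all 10 members the summed level was 971 ± 19.0 CPM in WT and 978 ± 10.8 CPM in PHD2cko.

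**Figure D2:**
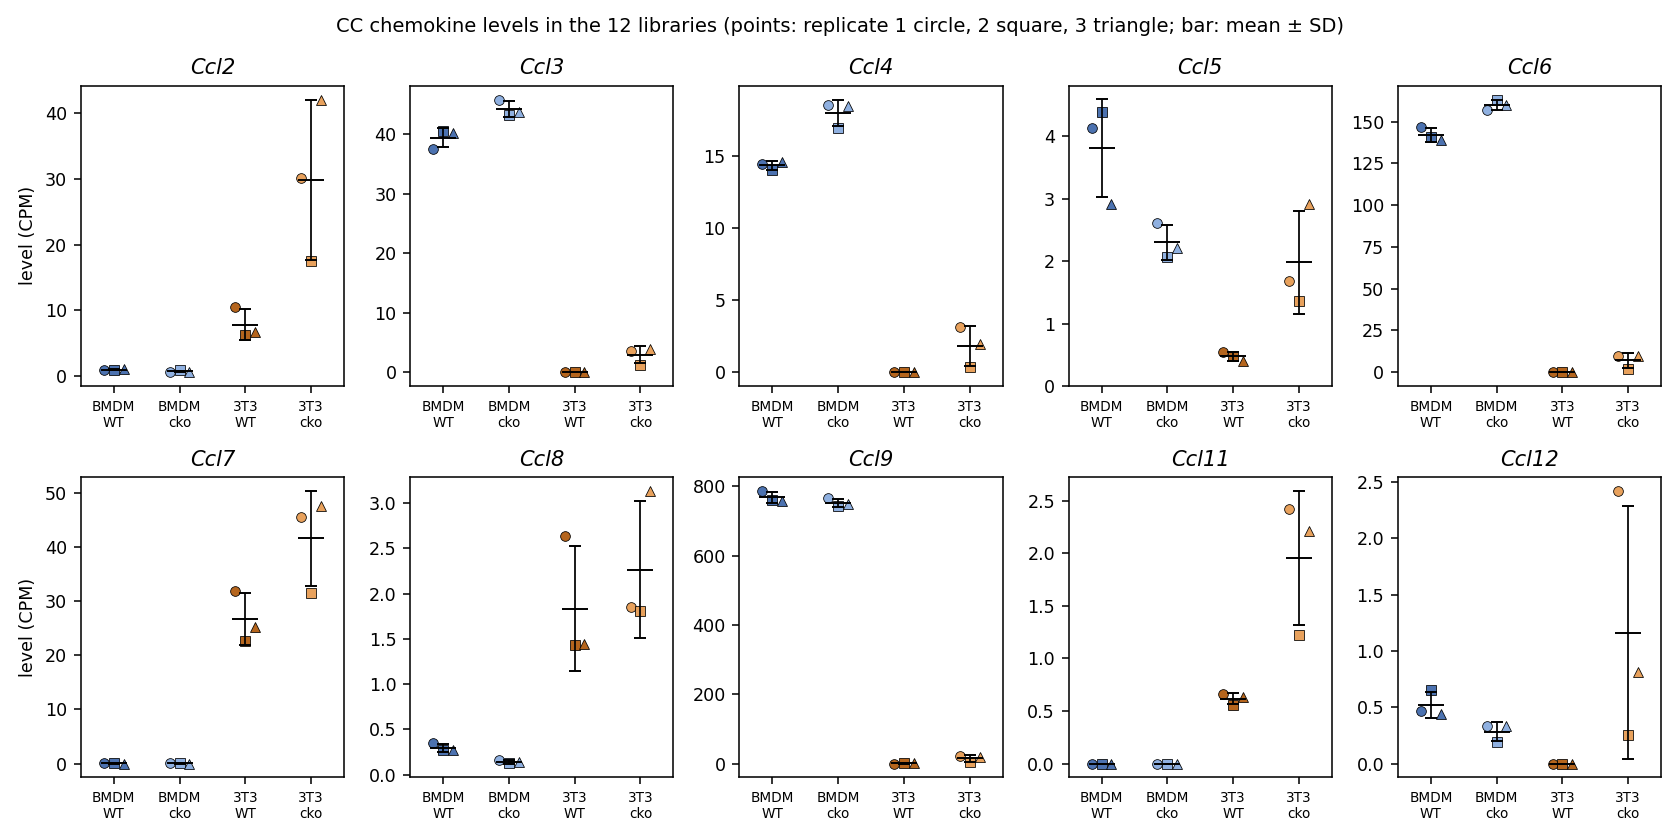
Each panel shows 1 CC chemokine, with its level in CPM on a linear axis of its own and a point for each of the 12 libraries, grouped as BMDMs labelled WT and PHD2cko (cko) and 3T3 in WT and PHD2cko medium, with bars for mean ± SD. Ccl3, Ccl4, Ccl6 and Ccl9 are high in BMDMs, Ccl2, Ccl7, Ccl8 and Ccl11 in 3T3, and replicate 2 (square) is the lowest of 3T3 in PHD2cko medium in every panel.

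The fibroblast libraries differed widely between the media. In them, 22 of the 23 macrophage markers were also called higher in PHD2cko medium. The calls below do not separate RNA made by the fibroblasts from macrophage RNA, and the cause was not tested. Of the 10 members, 9 were higher in PHD2cko medium at an adjusted p under 0.05 and none lower, while 15.7% of all genes passed in either direction and 8.93% were higher. The 9 include Ccl12, which passed the filter only through libraries where it was high. The 3 libraries in PHD2cko medium lay above all 3 in WT medium for 8 members, against 15.4% of all genes. The median log2 fold change was 2.81 over the 10 members and -0.0046 over all genes. The summed level of the family was 38.8 ± 7.32 CPM in WT medium and 106 ± 38.5 CPM in PHD2cko medium.

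Among the Ccr2 ligands, Ccl2 had 523, 272 and 777 counts in PHD2cko medium, each above the highest count in WT medium, 192. Its level was 3.83-fold higher (log2 fold change 1.91, standard error 0.267, adjusted p = 0.000514), and it passed in all 8 alternatives and with each library left out. Ccl12 went from 0 counts in each library to 42, 4 and 15, at least 7.65-fold higher at the floor of 3 counts per library (adjusted p = 0.00444). That bound rested on replicate 1 and was 3.51-fold without it, and replicate 2, with 4 counts, was close to the floor. The filter on either cell type alone left out Ccl12. It was tested only through libraries where it was high, so its adjusted p is no support for a difference. Ccl7, already the most abundant member, had 791, 489 and 882 counts, which overlapped WT medium, since 31.5 CPM in replicate 2 lay below the 32.0 CPM of WT medium replicate 1. Its 1.56-fold difference (0.61, standard error 0.157) had an adjusted p of 0.0202, which was 0.0787 without WT medium replicate 2, 0.0537 without WT medium replicate 3, 0.0834 without PHD2cko medium replicate 1 and 0.103 without PHD2cko medium replicate 3. Ccl7 also failed with the 6 fibroblast libraries alone (adjusted p = 0.0906).

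The eosinophil attractant Ccl11 had 42, 19 and 41 counts in PHD2cko medium and was 3.17-fold higher, with no overlap (log2 fold change 1.63, standard error 0.330, adjusted p = 0.0124). That call was lost, at adjusted p = 0.0520, 0.0559 and 0.0579, without WT medium replicate 2, PHD2cko medium replicate 1 and PHD2cko medium replicate 3. Ccl8, the Ccr8 ligand, did not pass. Its 32, 28 and 58 counts overlapped those in WT medium (0.28, standard error 0.287, adjusted p = 0.564).

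The ligands of Ccr1, and Ccl4 with them, appeared where they had been near absent. Ccl3 had 62, 20 and 73 counts, at least 19.3-fold higher at the floor (adjusted p = 8.65e-05), and Ccl4 had 54, 6 and 36, at least 11.9-fold higher (adjusted p = 0.00212). The bound for Ccl4 was 7.66-fold without PHD2cko medium replicate 1. Ccl6 rose 51.6-fold to 172, 26 and 179 counts (5.37, standard error 0.782, adjusted p = 0.000672). The size of that change rested on WT medium replicate 2, which held 9 of the 10 counts there, and was 7.62 without it and 4.90 without WT medium replicate 3. Ccl9 rose 12.8-fold to 395, 83 and 356 counts (3.60, standard error 0.468, adjusted p = 0.000328). Ccl5 rose 4.16-fold to 29, 21 and 54 counts (2.01, standard error 0.335, adjusted p = 0.00152). Replicate 2 was the lowest of the 3 for all 10 members, not only for these 5 genes, and for the summed macrophage markers.

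**Figure D3:**
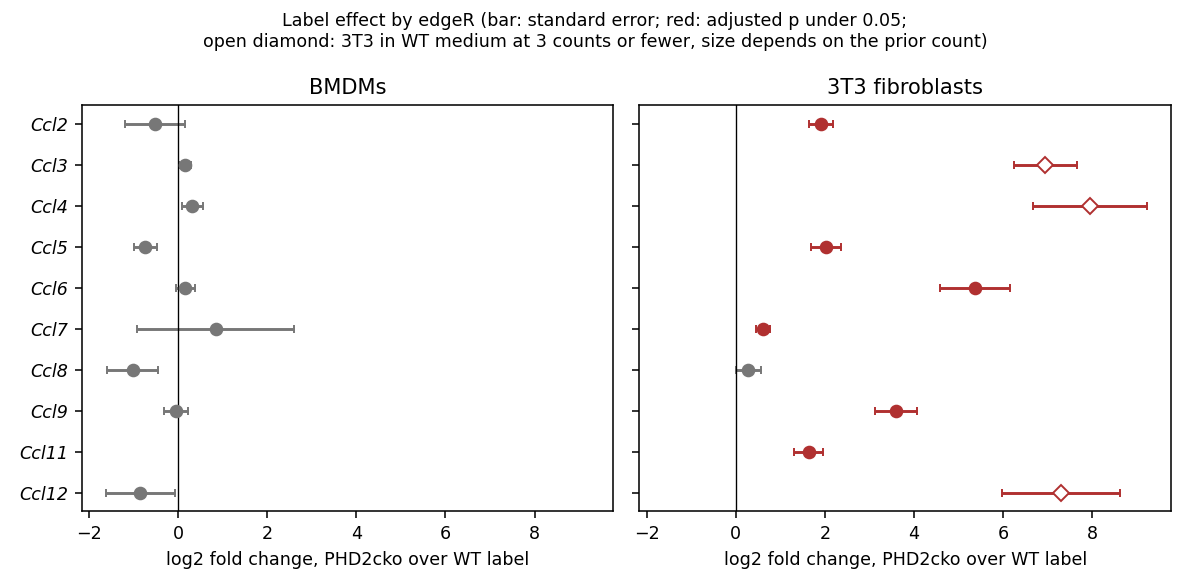
Points give the edgeR log2 fold change of PHD2cko over WT for each CC chemokine in BMDMs and in 3T3 fibroblasts on a common axis, bars the standard error, red an adjusted p under 0.05, and open diamonds members with at most 3 counts in every library of 3T3 in WT medium, whose size depends on the prior count. No BMDM point is red, and 9 of the 10 fibroblast points are red, all above 0. Ccl11 has no BMDM value because it was at 0 there.

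The macrophage signal in the same fibroblast libraries was measured beside these values. The summed marker level, as a percent of that in BMDMs with the label of the medium, was 0.0548 ± 0.00218% in WT medium. It was 1.68 ± 1.01% in PHD2cko medium, with 2.38, 0.524 and 2.14% in replicates 1, 2 and 3 (95% Wilson intervals 2.34 to 2.41, 0.505 to 0.543 and 2.11 to 2.18, counting error only). The difference reached p = 0.1 in a two-sided exact permutation test, the smallest p that 3 libraries against 3 allow. Of the 23 markers, 22 passed as higher in PHD2cko medium and none was at 0 there, whereas the neutrophil markers summed to at most 0.193 CPM and the B and T cell markers did not exceed 2.98 CPM in any 3T3 library. In bulk RNA, a few macrophages with their full RNA content and more of them with less cannot be told apart, nor can whole cells and free RNA.

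For each member, the level above the WT medium mean was then set against the BMDM level of the PHD2cko label. For the summed markers this excess was 2.32, 0.462 and 2.08% of the BMDM level in replicates 1, 2 and 3, and single markers ranged from 0.941 to 14.0%, from 0.190 to 2.68% and from 0.801 to 11.0%. Ccl9 had 2.86, 0.547 and 2.39%, amid the markers, 14 of 23 of which were at or above it in every replicate. Ccl6 had 6.12, 0.961 and 5.96%, with 1 to 3 markers at or above it. Ccl3 reached 8.05, 2.88 and 8.87%, and Ccl4 17.3, 2.15 and 10.8%, which only 1 marker or none equalled. Ccl5 was far outside the markers, at 52.1, 38.2 and 106% of its BMDM level. Ccl12 was at 854, 90.8 and 286%, and Ccl2 at 3368, 1463 and 5145%, so the fibroblast libraries held about as much Ccl12 RNA as BMDMs or more, and far more Ccl2 RNA. Ccl7, Ccl8 and Ccl11 had at most 3 counts in every BMDM library labelled PHD2cko, so no percent is given for them.

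**Figure D4:**
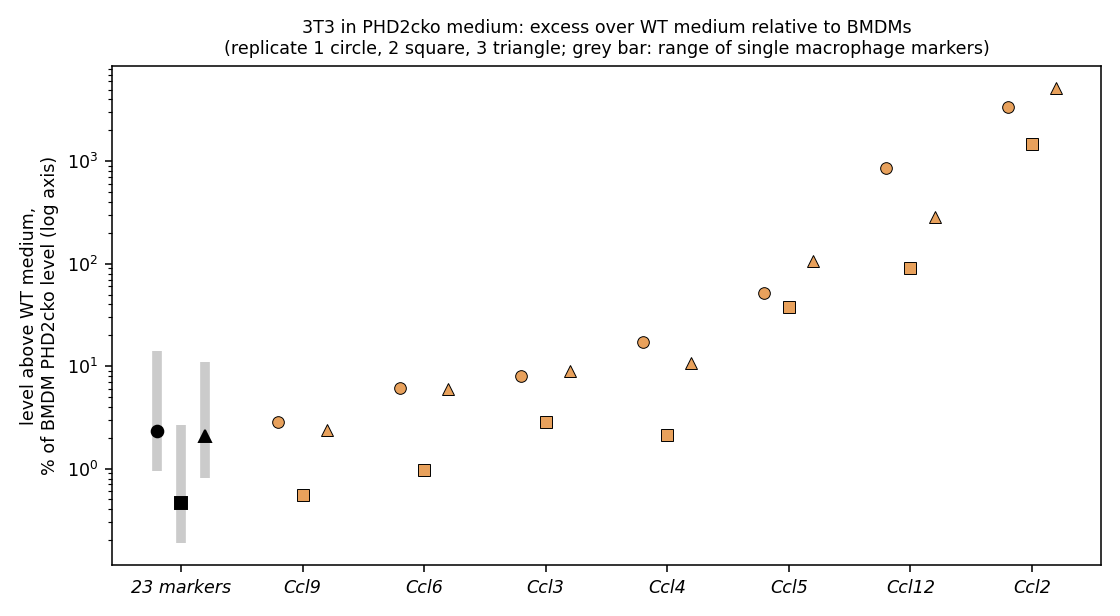
The level of 3T3 in PHD2cko medium above the WT medium mean is plotted as a percent of the mean BMDM PHD2cko level on a log axis, for the 23 summed macrophage markers (black, with grey bars for the range of single markers) and for 7 CC chemokines, by replicate. Ccl9 (0.547 to 2.86%) lies within the grey bars, and Ccl5 (38.2 to 106%), Ccl12 and Ccl2 lie above them in every replicate.

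The same arithmetic gave the count that the WT medium level and the marker share together would put in each library. For Ccl9 that sum was 323, 73.2 and 312 counts against 395, 83 and 356 counted, a ratio of 1.13 to 1.22. This ratio turned with the choice of share, since the median of the single markers in place of their sum gave 424, 89.3 and 419.9 counts and a ratio of 0.848 to 0.931. The ratio was 1.91 to 2.79 for Ccl6, 3.44 to 5.91 for Ccl3 and 4.65 to 7.48 for Ccl4. With the median share these were 1.52 to 2.06, 2.59 to 4.61 and 3.57 to 5.60. With the summed share the ratio was 2.78 to 5.57 for Ccl5, 2.24 to 5.36 for Ccl2, 1.99 to 3.94 for Ccl11, 1.18 to 1.79 for Ccl7 and 0.984 to 1.71 for Ccl8. These ratios take the mean of WT medium as exact, although its libraries overlapped those in PHD2cko medium for Ccl7 and Ccl8. For Ccl12 the sum was 0.114, 0.0204 and 0.109 counts against 42, 4 and 15. With each library's share of the BMDM profile subtracted, taken from the summed markers, 9 members still passed. Ccl9 kept 85, 22 and 58 counts against 6, 31 and 15 in WT medium. Its log2 fold change was then 1.90 in place of 3.60 (adjusted p = 0.00869). Subtraction of the median share was not run. These sums take the BMDM profile as it stands in the BMDM libraries, and whether macrophage RNA in the fibroblast libraries had that profile was not tested.

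**Figure D5:**
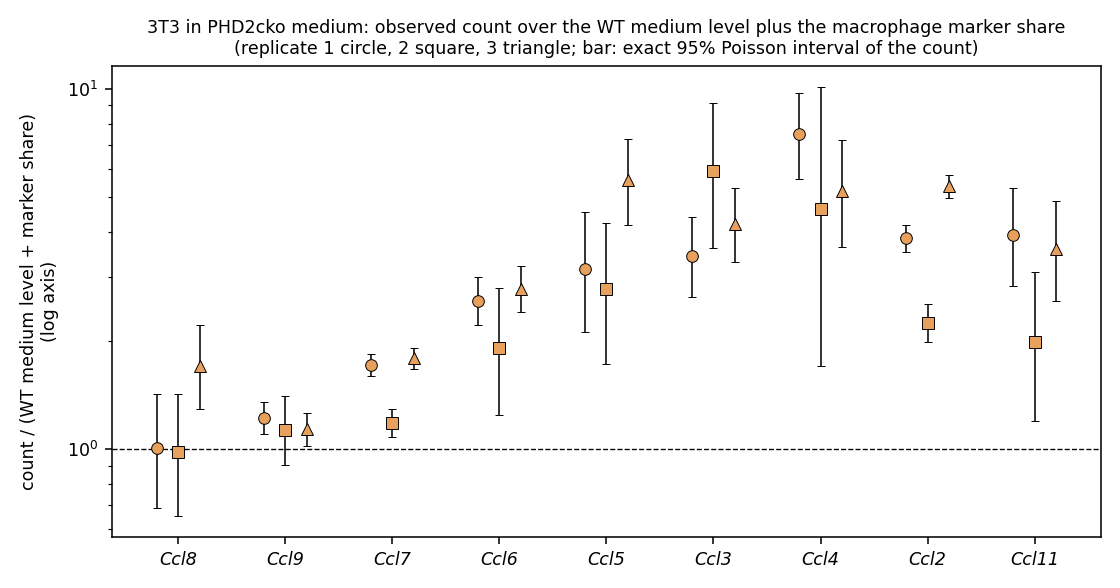
The count in each library of 3T3 in PHD2cko medium is divided by the count expected from the WT medium level plus the macrophage marker share (log axis, dashed line at 1), with exact 95% Poisson intervals of the count, which cover counting error only, for 9 CC chemokines. Ccl8 and Ccl9 lie nearest to 1, Ccl3 and Ccl4 between 3.44 and 7.48, and Ccl12 is left out because its sum is under 1 count.

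The effect of the label itself was compared between the cell types by the difference of the log2 fold changes, fibroblasts minus BMDMs. It passed for 7 members, all with a larger effect in fibroblasts, against 12.3% of all genes in either direction. These were Ccl3, Ccl4, Ccl5, Ccl6, Ccl9 and Ccl12, which passed under each of the 7 alternatives and without each of the 12 libraries, and Ccl2. Ccl12 entered this test only through libraries where it was high, so its call is no support for a difference. The difference for Ccl2 was 2.43 (standard error 0.733, adjusted p = 0.0484). It failed with limma-voom (adjusted p = 0.213), with the marker share subtracted (0.0521) and without 9 of the 12 libraries (up to 0.130, without WT BMDM replicate 3). The size stayed between 2.40 and 2.47 over the alternatives, and subtraction left the Ccl2 counts of all fibroblast libraries as they were. For Ccl5 the log2 fold changes had opposite signs, -0.74 in BMDMs and 2.01 in fibroblasts, a difference of 2.75 (standard error 0.423, adjusted p = 0.000984). Ccl7 and Ccl8 did not pass (adjusted p = 0.966 and 0.233), and Ccl11 gave no value.

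The other 11 CC chemokine genes of the table gave no call in either comparison of labels. In fibroblasts 6 could be tested, with 1 unadjusted p under 0.05. That was Ccl17, a Ccr4 ligand, with 26, 34 and 15 counts in WT medium and 31, 39 and 50 in PHD2cko medium (0.89, standard error 0.312, adjusted p = 0.0745). Ccl22, also a Ccr4 ligand, was found in BMDMs, with 16, 12 and 10 counts in WT and 12, 12 and 16 in PHD2cko, and had at most 1 count in any fibroblast library. Ccl1, Ccl19, Ccl20, Ccl21a and Ccl26 had at most 3 counts in every library. The median log2 fold change of the 6 was -0.28 in fibroblasts, against -0.0046 over all genes.

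Of 14 CC chemokine receptors, 8 could be tested. In BMDMs 1 was higher and 2 were lower in PHD2cko, against 6.73% of all genes. Ccr2, the monocyte receptor of Ccl2, Ccl7 and Ccl12, fell from 8530, 8866 and 8476 counts to 5979, 5109 and 6871 (log2 fold change -0.58, standard error 0.0821, adjusted p = 0.000801). Ccr1, the receptor of Ccl3, Ccl5, Ccl6 and Ccl9, fell from 544, 686 and 582 to 354, 281 and 374 (-0.90, standard error 0.192, adjusted p = 0.0187). Ccr3, the eotaxin receptor, rose from 56, 40 and 45 to 111, 75 and 94 (0.93, standard error 0.227, adjusted p = 0.0343).

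In fibroblasts 3 receptors were higher in PHD2cko medium, against 8.93% of all genes, and none lower. Ccr1 went from 0 in each library to 29, 2 and 32 counts (adjusted p = 0.00559). Ccrl2, a decoy-like receptor, had 0, 0 and 1 counts in WT medium and 10, 2 and 8 in PHD2cko medium (adjusted p = 0.00507). Against the WT medium level plus the marker share, the counts of Ccr1 were 1.52 to 4.54 times the sum. Ccr2, singled out after its values were seen, had 8, 4 and 4 counts in PHD2cko medium and 14, 10 and 3 in WT medium. With 325 CPM in PHD2cko BMDMs, the marker share and the WT medium level would have given 138, 30.3 and 133 counts of it. Why these ratios differed between genes was not tested. The median log2 fold change of the 8 receptors was -0.018 in BMDMs and 1.17 in fibroblasts.

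Genes that act upstream of CC chemokines were taken next. Of 18 inducing cytokines and receptors, 13 could be tested. Tlr2, a sensor of bacterial lipoproteins, was lower in PHD2cko BMDMs (-0.57, standard error 0.0641, adjusted p = 0.000135). In fibroblasts 1 was higher and 1 lower. These counts are near the shares of all genes, 6.73% in BMDMs and 15.7% in fibroblasts, and are not a result about the list. The cytokine gene Tnf went from 0 in each library to 28, 4 and 32 counts (adjusted p = 0.00174), which was 10.4 to 15.5 times the WT medium level plus the marker share. Its receptor gene Tnfrsf1b was lower (-0.22, standard error 0.0624, adjusted p = 0.0326). Median log2 fold changes of the list were -0.060 in BMDMs and 0.14 in fibroblasts.

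Of 25 transcription factors and feedback inhibitors, all could be tested, and 4 passed in BMDMs against 6.73% of all genes. In PHD2cko BMDMs the AP-1 genes Fos (0.65, adjusted p = 0.00285) and Jun (0.20, adjusted p = 0.0241) were higher, and the cytokine signalling inhibitors Socs1 (-0.89, adjusted p = 0.0496) and Socs3 (-0.56, adjusted p = 0.000670) lower. In fibroblasts 10 were higher, against 8.93% of all genes, and none lower. Irf8, a factor of the myeloid lineage, went from 0, 1 and 0 to 91, 27 and 104 counts (adjusted p = 8.11e-05), 0.890 to 1.46 times the WT medium level plus the marker share. Irf5, another interferon-regulated factor of immune cells, rose by 1.53 (adjusted p = 0.00538), at 0.903 to 1.17 times that sum. Nfkbia (0.73, adjusted p = 0.00169) and Nfkbie (0.92, adjusted p = 0.00727), inhibitors that NF-kB itself induces, and Fos (0.84, adjusted p = 0.0110) were also higher. The median of this list was -0.13 in BMDMs and 0.20 in fibroblasts.

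Genes that followed a member most closely over the 12 libraries are given as a description, since the libraries of a group share their cells. By Pearson's r of log2 CPM, Ccl2 was followed most closely by Pola2 (0.989), Fam102a (0.983) and Ubtf (0.983), Ccl5 by Pilra (0.965), Nfkb2 (0.964) and Spata2 (0.957), and Ccl11 by Vtn (0.984), Pola2 (0.979) and Mov10 (0.979). The libraries were scaled by TMM for this measure. Over the total count Nfkb2, an NF-kB subunit, lay between 80.8 CPM in PHD2cko BMDMs and 98.0 CPM in 3T3 in PHD2cko medium, and Ccl5 between 0.476 and 3.81 CPM. Pilra, an inhibitory receptor of myeloid cells, had 145, 160 and 147 counts in WT BMDMs and 70, 68 and 89 in PHD2cko BMDMs. In fibroblasts it had 5, 8 and 7 counts in WT medium and 43, 14 and 50 in PHD2cko medium, the same order of groups as Ccl5. Vtn, which encodes the matrix protein vitronectin, had at most 1 count in any BMDM library, as Ccl11 had none, and between 6 and 22 counts in 3T3.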

How the data were processed

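The authors deposited estimated counts per gene, made with Kallisto on GRCm38 per the labels and the paper's methods, for 32544 genes in 12 libraries, and 0 columns could not be mapped to a sample. No normalization had been applied, and the values were whole numbers. Filters upstream of the table are not given in the sources used here. Genes were kept by filterByExpr over the 4 groups (14285 kept) and fitted together with edgeR 4.0.16 in R 4.3.3 (TMM, quasi-likelihood test, two-sided, Benjamini-Hochberg over all genes kept, threshold 0.05). All 10 CC chemokines were kept, but the same filter on BMDMs alone left out Ccl7, Ccl8, Ccl11 and Ccl12, and on 3T3 alone Ccl4 and Ccl12, so genes that passed through the group where they were high had to differ. CPM are over the total count, except for overlap of groups and Pearson's r, where libraries were scaled by TMM. Folds against a group with at most 3 counts in every library were computed at that floor. Shares used 23 macrophage markers. Exon lengths and positions were from GENCODE M21. Named genes were the 10 members, at most 5 per list and comparison of labels by size of change among those past the threshold, without overlap and with 1 or more CPM as the mean of a group, and the 3 closest followers of Ccl2, Ccl5 and Ccl11 (log2 CPM with 0.5 CPM added). Alternatives were DESeq2 1.42.0 (size factors, Wald test), limma 3.58.1 with voom, which the authors used, other filters, a replicate block, each cell type alone, the marker share subtracted and each library left out. The members and lists were chosen with earlier results of these data known. The fits were tested on simulated data. Some items are not reported here, so a count over a list can exceed the genes named.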

Additional observations from a re-analysis of the deposited data

Results flagged for a closer look

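For 7 CC chemokines the effect of the label differed between fibroblasts and BMDMs by the test of the difference itself, in log2 units as fibroblasts minus BMDMs. The difference was 6.79 for Ccl3, 7.63 for Ccl4, 5.21 for Ccl6, 3.64 for Ccl9, 2.75 for Ccl5, 8.14 for Ccl12 and 2.43 for Ccl2. The sizes for Ccl3, Ccl4 and Ccl12 depend on the prior count, since 3T3 in WT medium had at most 1 count of each. Single libraries moved some sizes by over 1.5 times in fold. Without WT medium replicate 2 the difference was 8.42 for Ccl3 and 7.47 for Ccl6, and without PHD2cko medium replicate 1 it was 7.03 for Ccl4 and 7.05 for Ccl12. All 6 of the genes other than Ccl2 passed without each library, but Ccl12 had entered the test only through libraries where it was high. The macrophage marker share of the fibroblast libraries moved with the medium in the same direction, from 0.0548 to 1.68%. With that share subtracted, 6 of the 7 still passed, with Ccl9 at 1.94 in place of 3.64. Ccl2 did not pass (adjusted p = 0.0521), although its fibroblast counts were not altered by the subtraction and its difference was 2.47. This subtraction used the share of the summed markers. With the median of the single markers, the WT medium level plus that share gave 424, 89.3 and 419.9 counts of Ccl9. The libraries in PHD2cko medium had 395, 83 and 356, and subtraction of the median share was not run.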

How the results depend on the processing

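The count of CC chemokines called in BMDMs was 0 in every fit of all 12 libraries and without each library, but 4 with the 6 BMDM libraries alone, which called 20.6% of all genes against 6.73%. In fibroblasts 9 were called, 7 to 9 without 1 library, 7 with DESeq2's Wald test, which gave no adjusted p for 2 members, and 6 of 8 tested (not Ccl7 or Ccl8) with the 6 fibroblast libraries alone, which called 6.82% of all genes against 15.7%. The difference between cell types gave 6 or 7, and BMDMs against fibroblasts gave 10, in every alternative and without each library. The marker share in PHD2cko medium was 2.46% as a median of single-gene ratios, 1.80% without Lyz2 and 1.33 to 2.26% without 1 library. Ccl9 over the WT medium level plus the marker share was 1.17 as a mean of 3 libraries, and 0.903 with the median of single-gene ratios, an alternative chosen after seeing the data. Among fold changes, directions turned only for members not called. Ccl8 in fibroblasts ran from -0.039 to 0.65 on the log2 scale without 1 library, and the difference of Ccl7 between cell types was 0.24 with limma-voom and -0.88 to 0.29 without 1 library, against -0.24. The cause was not tested. With the replicate number as a block, 0, 9, 10 and 7 members were called in BMDMs, fibroblasts, BMDMs against fibroblasts and the difference, as without it. Deviations of libraries with the same number correlated at -0.047 to 0.0091 in BMDMs and -0.14 to 0.11 in fibroblasts. With different numbers they correlated at -0.023 to 0.036 and -0.18 to 0.18. No pairing by number was seen, which with 3 libraries per group does not exclude that same-numbered cultures were prepared together. Members with under 10 counts per library, such as Ccl7 and Ccl8 in BMDMs, are limited by depth.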
